A study of Mus musculus with 6 samples.

Results

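Collagen chain genes were followed by RNA-seq in interstitial cells of the fetal mouse testis that had received a Hedgehog agonist or its vehicle. The genes were the rows whose symbol is Col, a type number, the letter a and a chain number, which gave 44 genes of 24413, covering 27 collagen types. The cells, called W-EGFP in the labels, came from E16.5 embryos of FLE-EGFP mice, a reporter line named for an enhancer of fetal Leydig cells and for the fluorescent protein EGFP. Samples held 10000 cells and were given either SAG, an agonist of the Hedgehog transducer Smoothened, at 0.5 µM or the vehicle DMSO, and treatment lasted 1 hour. There were 3 libraries per group. The table's column names carry "siCnt" in both groups, which the labels do not explain. Whether replicates were separate cultures or animals is not stated, so p-values measure the spread between these libraries, which may be technical.

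Collagens are secreted proteins whose chains wind around each other in a long helix of glycine-rich repeats. Fibrillar collagens form the ropes of connective tissue, and collagen IV forms the sheet of basement membranes. Collagen VI forms beaded microfilaments between them, and FACIT collagens (fibril-associated collagens with interrupted helices) coat the fibrils. In the fetal testis interstitial cells and peritubular cells lay down the matrix around the seminiferous cords, and the basement membrane of the cords holds collagen IV.

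The unit is the authors' signal, CPM with scaling factors inside. Depth ran from 18486396 to 25491259 reads in DMSO but only from 7694479 to 8804335 with SAG, so 1 read was a signal of 0.0414 to 0.0564 in DMSO and 0.106 to 0.128 with SAG. Collagen chain genes took 6.37% to 6.79% of all reads in DMSO, and with SAG 7.88%, 8.60% and, in replicate 3, 11%. SAG replicate 3 stood apart from the other 5 libraries. Its median deviation of a gene from the group mean was 0.197 on the log2 scale. The other SAG libraries had 0.12 and 0.145 and DMSO had 0.0608 to 0.0627. In SAG replicate 3, 1.67% of reads lay on the ribosomal RNA gene Rn45s, against at most 0.360% elsewhere. Its fetal Leydig markers Hsd3b1, Cyp11a1 and Star were at signals of 30.8, 33.9 and 50.7, above each of the other 5 libraries. The other listed fetal Leydig markers were not raised there. Cyp17a1 had no read in it, and Insl3 was at 0.257, below the 1.24 and 0.508 of DMSO replicates 1 and 2. The part of these markers in its collagen values was not tested. Rows of spike-in RNA held no reads in the DMSO libraries and 111, 54 and 1205 reads in SAG replicates 1, 2 and 3, and this difference and the treatment cannot be told apart. Results that rest on SAG replicate 3 are given with and without it. The 6 markers of interstitial progenitor cells listed for the analysis were all detected in every library, while the germ cell markers Pou5f1, Dppa3 and Mael had no read in any library. The other listed germ cell markers, Ddx4 and Dazl, had at most 5 and 2 reads in any library.

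The comparison asked which collagen transcripts differ when Smoothened is activated. Of the 44 genes, 36 had a mean signal of at least 1 over the 6 libraries and were tested. Of these, 16 rose, 7 fell and 13 were not called (limma, Benjamini-Hochberg adjusted p under 0.05 over 12550 genes). Over all tested genes 12.9% rose and 16.6% fell, 29.6% in either direction. The edgeR quasi-likelihood test on the recovered reads called 17 collagen genes higher and 8 lower, where 15.0% of all genes were called in each direction. The median log2 fold change, taken as SAG minus DMSO after adding 1 to each signal, was 0.56 over the 36 genes and -0.03 over all tested genes. In other settings the collagen median ran from 0.37 to 0.72, and that of all tested genes from -0.06 to 0.10. The 0.37 came with a pseudocount of 5, without a filter and with a mean signal of at least 5. The 0.72 came from DESeq2 on the recovered reads. Of the 36 genes 22 had all SAG values above all DMSO values and 9 had them all below, where 21.2% and 26.8% of all tested genes did. Col11a2, Col24a1 and Col9a2 passed the filter with a DMSO mean below 1 and Col10a1 with a SAG mean below 1, so the tested genes are not a neutral sample of the family. Just inside the filter lay Col9a2 and Col10a1, at mean signals of 1.27 and 1.43, and just outside lay Col13a1 and Col22a1, at 0.766 and 0.663. Scaling each library by its total gave 20 higher and 5 lower among collagen genes, or 80.0% higher against 69.6% with the authors' scaling. With it 19.7% of all genes were higher and 10.0% lower, so 66.3% of all calls were higher, against 43.8%. The median log2 fold change of all tested genes was then 0.10, against -0.03. Without SAG replicate 3, 18 of 35 tested collagen genes rose and 9 fell, where 19.7% and 27.0% of all tested genes did.

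**Figure D1:**
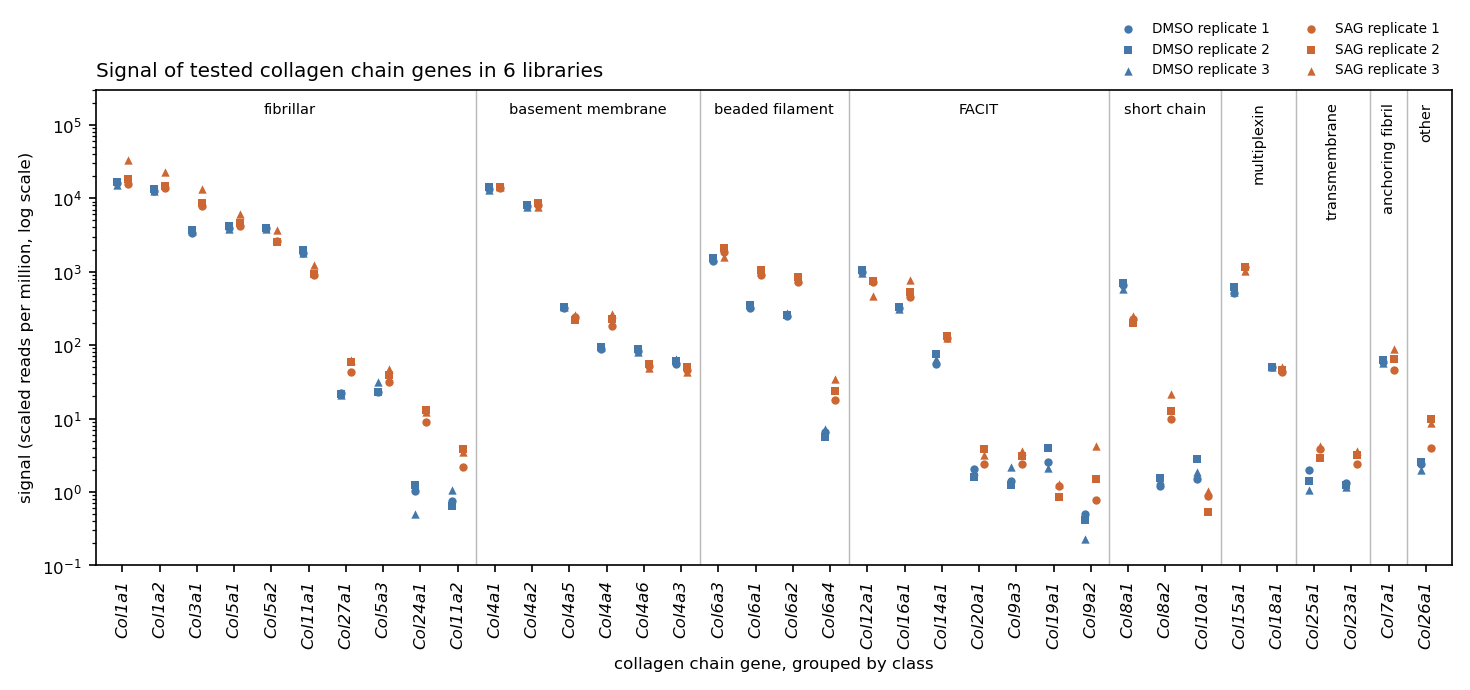
Signal of the 36 tested collagen chain genes in each of the 6 libraries (vertical axis: scaled CPM, log scale; horizontal axis: genes grouped by class and ordered by mean signal within it). Blue points are DMSO, orange points SAG, and shapes mark replicates 1, 2 and 3; values run from 0.226 for Col9a2 in DMSO replicate 3 to 33152 for Col1a1 in SAG replicate 3.

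Levels of different genes were compared per kilobase of the transcript with the longest coding sequence in GENCODE M21. In DMSO the order of mean signal per kilobase was Col1a1 (2680 ± 116, SD, n = 3), Col1a2 (2407 ± 96.5), Col4a1 (2045 ± 84.7), Col4a2 (1200 ± 44.4) and Col3a1 (639 ± 32.4), followed by Col5a2, Col5a1 and Col11a1 at 583 ± 16.1, 470 ± 20.0 and 241 ± 12.7. No neighbours among these 8 had overlapping ranges in DMSO. With SAG, Col3a1 moved from rank 5 to rank 4, at 1780 ± 539 per kilobase, with a range that overlapped that of Col4a1 above it, and Col11a1 moved from rank 8 to rank 12. Order depends on the length used: with all exons of a gene merged, the ranks in DMSO were 4 for Col1a2 and 7 for Col3a1. Lower in the DMSO order, Col8a1 and Col15a1 overlapped, as did Col12a1 and Col6a1, Col14a1 and Col4a4, Col4a4 and Col18a1, and Col4a3 and Col7a1.

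Fibrillar chains made up 63.5% to 63.6% of the summed collagen level per kilobase in DMSO and 63.2%, 64.0% and 75.3% in SAG replicates 1, 2 and 3. Basement membrane chains made up 29.9% to 30.2% in DMSO and 28.2%, 27.3% and 18.7% with SAG. In both classes SAG replicate 3 lay furthest from DMSO. These shares depend on the length used. With merged exons the fibrillar means were 57.4% in DMSO and 61.6% with SAG, and the basement membrane means 36.2% and 30.4%. The beaded filament chains of collagen VI went from 2.58%, 2.64% and 2.87% to 4.82%, 5.14% and 3.33%, and the multiplexins, collagens of the basement membrane zone, from 0.971%, 1.10% and 1.05% to 1.93%, 1.75% and 1.13%. Short chain collagens went from 1.18%, 1.19% and 1.07% to 0.381%, 0.318% and 0.297%. In the basement membrane, beaded, multiplexin and short chain classes the groups did not overlap. A share of a sum falls when another class rises, so shares within SAG replicate 3 carry its high fibrillar signal. The FACIT share was 1.43% to 1.45% in DMSO and 1.17% to 1.44% with SAG, and the groups overlapped.

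**Figure D2:**
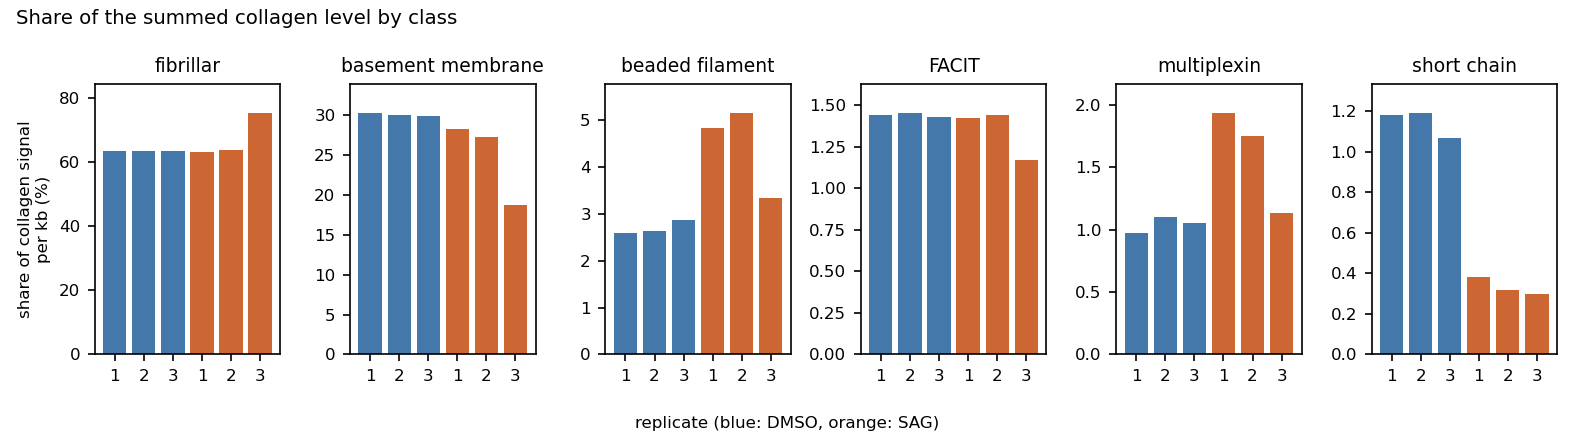
Share of the summed collagen signal per kilobase held by 6 classes (vertical axes: percent, each from 0 and with its own range; horizontal axis: replicates 1 to 3, blue DMSO and orange SAG). The short chain share is under 0.4% in each SAG library and above 1% in each DMSO library; SAG replicate 3 has 75.3% fibrillar and 18.7% basement membrane.

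Of 11 fibrillar genes 10 were tested, 5 rose and 1 fell, where 12.9% and 16.6% of all tested genes did. Among those that rose, Col24a1 and Col11a2 passed the filter only through their SAG values, which favours a rise in this count. With a mean signal of at least 5, 9 were tested, 4 rose and 1 fell, beside 1342 and 1962 of 10553 genes. Type III collagen rose, while the genes of type I, its usual partner in fibrils, were not called. Col3a1, the chain of type III collagen, had signals of 3352, 3692 and 3626 in DMSO replicates 1 to 3 and 7811, 8556 and 13342 in SAG replicates 1 to 3. Each SAG library was above each DMSO library, and the gene rose 2.78-fold (log2 fold change 1.44, SE 0.19; limma, Benjamini-Hochberg adjusted p = 0.000671). Without SAG replicate 3 it was still called, with a log2 fold change of 1.20. Col1a1, the main chain of type I collagen, had 15998, 16519 and 15157 in DMSO and 15674, 18398 and 33152 with SAG. Its groups overlapped, SAG replicate 3 alone lay far above the rest, and it was not called (log2 fold change 0.42, 95% interval -0.13 to 0.96; 0.10 without SAG replicate 3). Col1a2, the other chain of type I, had 12643, 13463 and 12509 against 13748, 14548 and 22843. Its SAG values all lay above DMSO, the first of them by little, and it was not called (0.37, 95% interval -0.05 to 0.79; 0.14 without SAG replicate 3). The level of Col3a1 over that of Col1a1, per kilobase, was 0.223, 0.238 and 0.255 in DMSO and 0.531, 0.496 and 0.429 with SAG. It was 2.03 times higher with SAG without overlap, and SAG replicate 3 was the lowest of the SAG values (exact two-sided permutation p = 0.1, the smallest that 3 against 3 libraries can give; 12 ratios of chains were computed). For Col1a1 over Col1a2 the ratio was 1.11 ± 0.0249 in DMSO and 1.16 ± 0.141 with SAG, and the groups overlapped; with merged exons these means were 2.34 and 2.43.

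**Figure D3:**
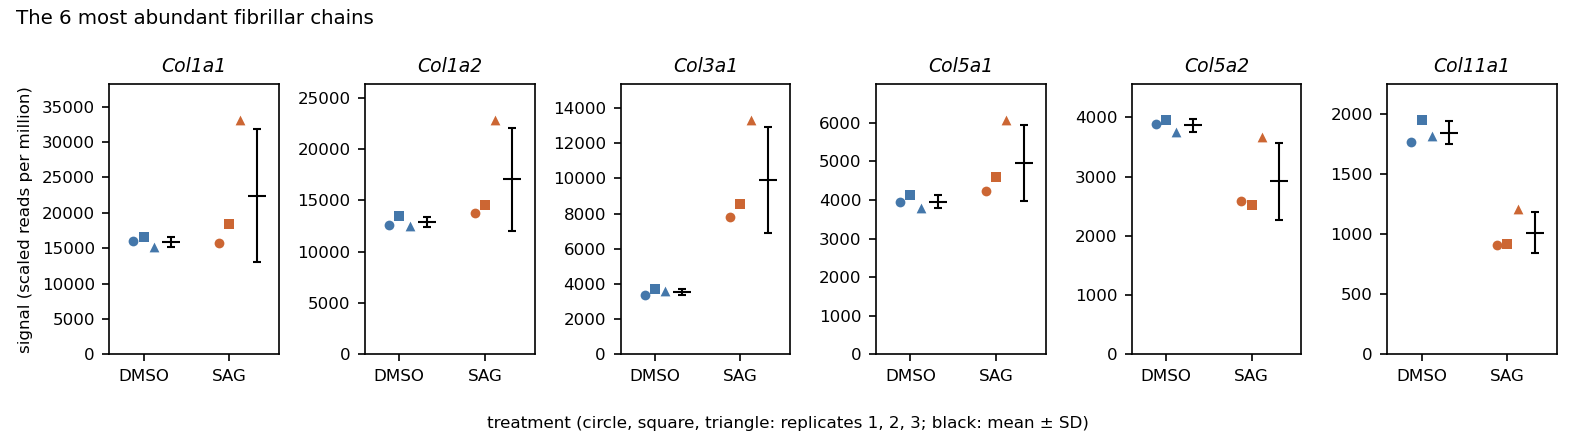
Signal of the 6 most abundant fibrillar chain genes by library (vertical axes: scaled CPM from 0, each with its own range; circles, squares and triangles are replicates 1, 2 and 3; black bars are mean ± SD, n = 3). Col3a1 is higher in every SAG library and Col11a1 lower in every one, while Col1a1, at 33152 in SAG replicate 3, overlaps between the groups.

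Type V and type XI collagens, which start fibril assembly and set fibril width, are given next. Col11a1, a chain of type XI best known from cartilage, had 1768, 1956 and 1819 in DMSO and 908, 922 and 1213 with SAG. All SAG values were below all DMSO values, and the gene was 1.82-fold lower (log2 fold change -0.88, SE 0.13; limma, Benjamini-Hochberg adjusted p = 0.00119). Col5a1, the central chain of type V, had 3953, 4120 and 3783 against 4219, 4595 and 6078. Its SAG values all lay above DMSO, by 1.26-fold on the means, but it was not called (log2 fold change 0.31, 95% interval -0.01 to 0.63; limma, Benjamini-Hochberg adjusted p = 0.129); without SAG replicate 3 it was (0.16, Benjamini-Hochberg adjusted p = 0.0469). Col5a2, the chain that pairs with it, had 3885, 3958 and 3748 in DMSO and 2581, 2514 and 3664 with SAG. SAG replicate 3 was close to DMSO and the other SAG libraries were lower, and the gene missed the threshold with all libraries (-0.43, SE 0.15; limma, Benjamini-Hochberg adjusted p = 0.056) and passed without that library (-0.60; 9.9e-09). The level of Col5a1 over Col5a2 per kilobase was 0.806 ± 0.0128 in DMSO and 1.35 ± 0.0831 with SAG. With merged exons these means were 1.16 and 1.93, so which chain was higher in DMSO depends on the length. That of Col11a1 over Col5a1 was 0.513 ± 0.0196 and 0.225 ± 0.00955. The groups did not overlap in either ratio (exact two-sided permutation p = 0.1 in each). They could not, since Col5a1 lay above DMSO and Col5a2 and Col11a1 below it in every SAG library, so these p-values add nothing.

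On GRCm38 Col3a1 and Col5a2 are neighbours on chromosome 1, tail to tail with 24614 bases between them (Col3a1 at chr1:45311538-45349706 on the plus strand, Col5a2 at chr1:45374321-45503282 on the minus strand). Col3a1 was above all DMSO values in every SAG library and Col5a2 below them in every one, though Col5a2 was not called with all libraries.

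Minor fibrillar chains rose from low levels. Col24a1, a chain described in developing bone, went from signals of 1.04, 1.25 and 0.508 in DMSO to 8.90, 13.2 and 12.2 with SAG. These are 25, 27 and 9 reads against 81, 125 and 95, the latter from the shallower libraries. The difference was 12.3-fold (log2 fold change 2.69, SE 0.23; limma, Benjamini-Hochberg adjusted p = 7.0e-05) and ranged from 10-fold to 14.8-fold when single libraries were dropped. Col27a1, a fibrillar chain of cartilage, had 22.2, 21.6 and 20.8 in DMSO and 43.3, 59.5 and 62.3 with SAG, a 2.56-fold rise without overlap (log2 fold change 1.30, SE 0.15; limma, Benjamini-Hochberg adjusted p = 0.00035). Col5a3, an alternative chain of type V, had 23.0, 23.0 and 31.2 against 31.9, 39.2 and 47.7. It rose 1.54-fold (log2 fold change 0.60, SE 0.18; limma, Benjamini-Hochberg adjusted p = 0.0305), and the highest DMSO value was close to the lowest SAG value. The call was lost without DMSO replicate 1 or 2, without SAG replicate 2 and without a filter on low values (limma, Benjamini-Hochberg adjusted p = 0.0531 to 0.123). Col11a2, another chain of type XI, had 0.745, 0.647 and 1.07 against 2.20, 3.81 and 3.47, a 3.85-fold rise on 14 to 36 reads per library (log2 fold change 1.18, SE 0.24; limma, Benjamini-Hochberg adjusted p = 0.00621). Its DMSO mean was 0.821, so it too passed the filter only through its SAG values. Col11a2 thus rose at a low level while Col11a1 fell at a high one. Col2a1, the collagen of cartilage, had at most 4 reads in any library and was not tested.

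**Figure D4:**
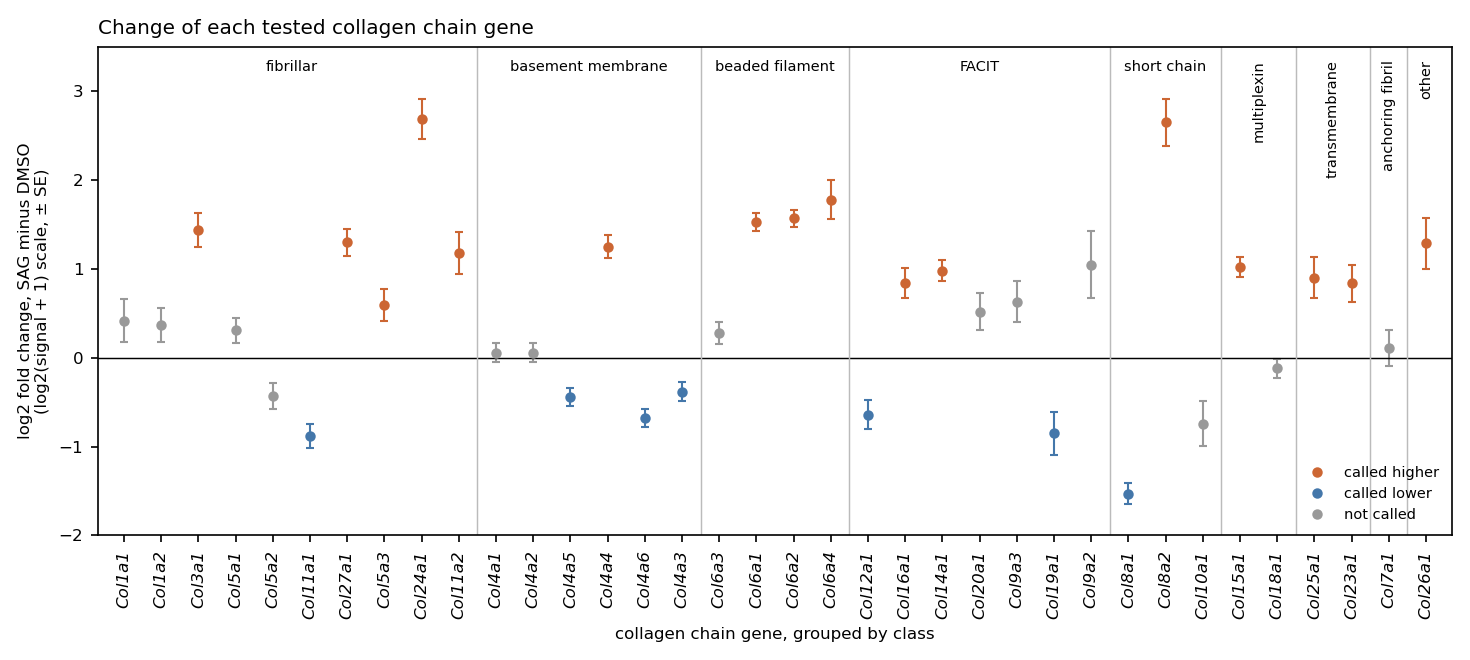
Fitted log2 fold change (positive where SAG is higher, pseudocount of 1) of the 36 tested collagen chain genes (vertical axis; bars are ± SE, n = 3 against 3; horizontal axis: genes grouped by class). Orange genes were called higher, blue lower and grey not called; values run from -1.53 for Col8a1 to 2.69 for Col24a1.

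Of the 6 collagen IV genes 1 rose and 3 fell, where 12.9% and 16.6% of all tested genes did. The collagen IV genes lie in head-to-head pairs, in which both genes are read outward from a shared stretch of DNA. Col4a1 and Col4a2 encode the chains found in nearly all basement membranes. Col4a1 had 13500, 14104 and 12984 in DMSO and 13847, 14383 and 14205 with SAG, and Col4a2 had 7721, 8038 and 7467 against 8056, 8701 and 7556. Their groups overlapped, and the log2 fold change was 0.06 for each, with 95% intervals of -0.19 to 0.32 and -0.19 to 0.31. Their ratio per kilobase was 1.70 ± 0.00771 and 1.71 ± 0.114. Unlike the type I genes, neither was highest in SAG replicate 3. On GRCm38 Col4a1 lies at chr8:11198423-11312826 on the minus strand and Col4a2 at chr8:11312805-11449287 on the plus strand, so that their exons share 22 bases at the starts.

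Col4a3 and Col4a4 encode chains that join with the chain of Col4a5 in the basement membrane of the kidney glomerulus, and here they moved apart. Col4a4 had 88.0, 94.2 and 94.6 in DMSO and 181, 228 and 261 with SAG. It rose 2.42-fold, with every SAG value far above DMSO (log2 fold change 1.25, SE 0.13; limma, Benjamini-Hochberg adjusted p = 0.000234). Col4a3 had 55.8, 61.6 and 64.9 in DMSO and 46.2, 50.2 and 43.2 with SAG, 1.31-fold lower with no overlap (-0.38, SE 0.11; 0.0317). That lower call was the least stable of the family. It was lost without any 1 of the DMSO libraries or SAG replicate 1, with library-total scaling, without the trend in limma and with a replicate block (limma, Benjamini-Hochberg adjusted p = 0.0512 to 0.165). The level of Col4a4 over Col4a3 per kilobase was 1.33, 1.29 and 1.23 in DMSO and 3.32, 3.84 and 5.11 with SAG, 3.18 times higher (exact two-sided permutation p = 0.1). The ratio needs no scaling between libraries. With Col4a4 above and Col4a3 below DMSO in every SAG library its groups could not overlap, so its p-value adds nothing to the calls.

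GENCODE M21 places the start of Col4a4 (chr1:82448423-82586849, minus strand) and that of Col4a3 (chr1:82586921-82722059, plus strand) 72 bases from each other on GRCm38. The 71 bases between them are shown because they separate the starts of genes called in opposite directions. They are printed on the strand of Col4a4, chr1:82586850-82586920, from the RefSeq promoter table for GRCm38.p6, and motifs would be in capitals.
Col4a4-Col4a3: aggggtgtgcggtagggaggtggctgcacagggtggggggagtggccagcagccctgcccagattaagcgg
The stretch had a GC content of 69.0% and held none of the motifs searched on both strands, which were the CCAAT box, with those letters, the GC box, with letters GGGCGG, the TATA box, searched as TATAAA, and the core of the GLI binding motif, searched as ACCACCC. An antisense gene, C430014B12Rik, overlaps 563 exonic bases of Col4a3, and, although the kit in the labels is directional, the strand setting of the counting is not given in the sources used here, so reads of the antisense gene may be among those of Col4a3.

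Col4a5 and Col4a6, whose chains join in the basement membrane of smooth muscle, were lower together. Col4a5 had 316, 334 and 327 in DMSO and 241, 219 and 260 with SAG, 1.36-fold lower (log2 fold change -0.44, SE 0.10; limma, Benjamini-Hochberg adjusted p = 0.00885). Col4a6 had 83.4, 87.3 and 80.5 against 51.8, 55.2 and 48.9, 1.61-fold lower (-0.68, SE 0.10; 0.00138). Neither overlapped between groups. The Col4a5 call was lost without DMSO replicate 2 or 3 (limma, Benjamini-Hochberg adjusted p = 0.0564 and 0.0535). Their starts lie 1309 bases from each other on chromosome X. The ratio of Col4a5 to Col4a6 per kilobase, 3.96 ± 0.149 and 4.72 ± 0.681, overlapped between groups (exact two-sided permutation p = 0.2). Alongside them, 6 of 6 tested smooth muscle and peritubular markers fell, where 16.6% of all tested genes did. The groups of Des overlapped (limma, Benjamini-Hochberg adjusted p = 0.0468), and those of the other 5 did not. The summed signal of the list, mostly from Acta2, Tagln, Myh11 and Actg2, was 20396 to 21314 in DMSO and 12980 to 14196 with SAG. The part of these markers in these results was not tested. In RNA from a whole sample of cells, fewer cells of a type and less RNA per cell cannot be told apart.

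**Figure D5:**
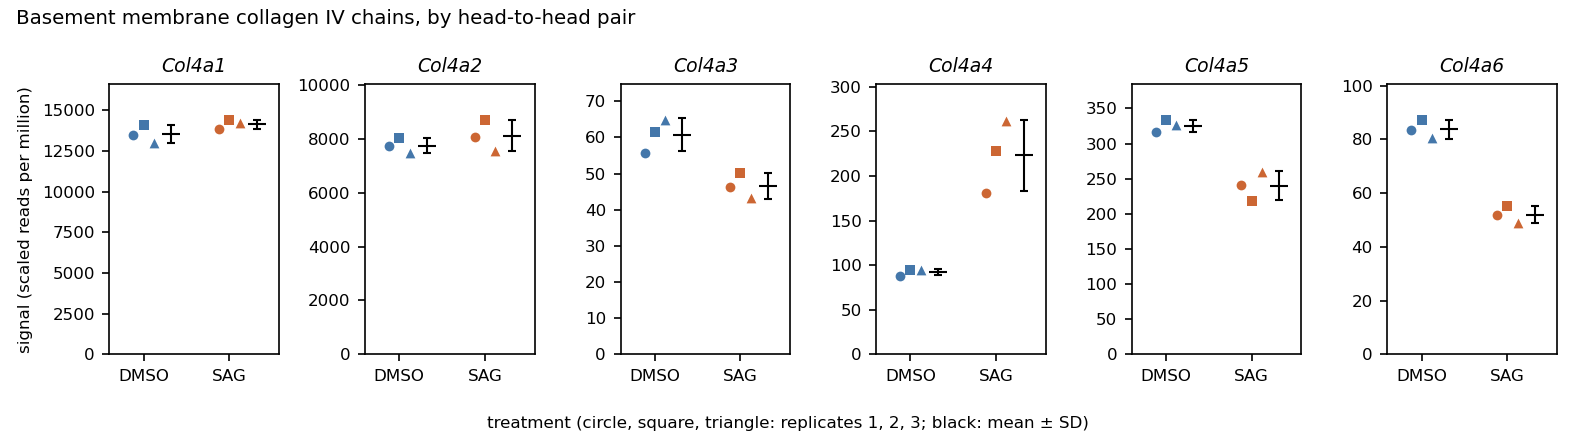
Signal of the 6 collagen IV genes by library, in the order of their head-to-head pairs (vertical axes: scaled CPM from 0, each with its own range; circles, squares and triangles are replicates 1, 2 and 3; black bars are mean ± SD, n = 3). Col4a1 and Col4a2 overlap between groups, Col4a4 is higher and Col4a3 lower with SAG, and Col4a5 and Col4a6 are both lower.

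Of 6 collagen VI genes 4 were tested and 3 rose, where 12.9% of all tested genes did. The collagen VI gene not called had the highest signal in DMSO. Col6a1 had 324, 347 and 350 in DMSO and 892, 1052 and 1009 with SAG. Col6a2, which encodes its partner chain, had 252, 259 and 277 against 712, 841 and 796. These had the smallest p-values of the family, with rises of 2.89-fold and 2.98-fold and log2 fold changes of 1.53 and 1.57 (SE 0.10 each; limma, Benjamini-Hochberg adjusted p = 2.3e-05 and 2.2e-05). Their ratio per kilobase was 1.25 ± 0.0395 in DMSO and 1.21 ± 0.00831 with SAG, and the groups overlapped, SAG replicate 3 included. Col6a3, the large chain that completes the usual trimer, had 1406, 1545 and 1520 in DMSO and 1841, 2065 and 1558 with SAG. Its groups did not overlap, but the difference was 1.22-fold and was not called (log2 fold change 0.28, 95% interval 0.01 to 0.55, Benjamini-Hochberg adjusted p = 0.107 in limma); without SAG replicate 3 it was (0.39; 2.5e-05). The level of Col6a3 over Col6a1 per kilobase went from 1.76, 1.80 and 1.76 to 0.837, 0.796 and 0.627, so that Col6a3 was above Col6a1 in each DMSO library and below it in each SAG library, with either gene length (exact two-sided permutation p = 0.1). Col6a4, which encodes a chain that can take the place of that of Col6a3 in mice, had 6.54, 5.69 and 7.16 against 17.9, 23.6 and 34.9. This was a 3.94-fold rise without overlap (log2 fold change 1.78, SE 0.22, Benjamini-Hochberg adjusted p = 0.000556 in limma). Without SAG replicate 3, its highest library, Col6a4 rose 3.21-fold. Col6a5 and Col6a6, its neighbours on chromosome 9, had at most 3 reads in any library.

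Col6a1 and Col6a2 point the same way on chromosome 10, with 85161 bases between them. Their upstream sequences are shown because these genes kept a near-constant ratio; bases within any GENCODE exon were cut off, and capitals mark motif matches. Col6a1 is at chr10:76726169-76726294 and Col6a2 at chr10:76623631-76623880, both on the minus strand of GRCm38.p6 (RefSeq).
Col6a1: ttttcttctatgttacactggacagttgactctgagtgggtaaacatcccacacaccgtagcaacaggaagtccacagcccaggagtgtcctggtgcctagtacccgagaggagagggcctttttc
Col6a2: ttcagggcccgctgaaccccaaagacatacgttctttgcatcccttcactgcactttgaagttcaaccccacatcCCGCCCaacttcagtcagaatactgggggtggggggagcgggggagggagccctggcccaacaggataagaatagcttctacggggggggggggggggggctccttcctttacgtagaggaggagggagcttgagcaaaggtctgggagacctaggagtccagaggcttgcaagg
The Col6a2 stretch held 1 GC box, on the opposite strand, and the Col6a1 stretch none of the motifs searched.

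Short chain collagens form hexagonal networks, and of the 3 genes 1 rose and 1 fell, where 12.9% and 16.6% of all tested genes did. Col8a1, a chain made in vessel walls and in the membrane behind the cornea, had 659, 696 and 578 in DMSO and 223, 198 and 249 with SAG. It showed the largest fall of the family, 2.88-fold with no overlap (log2 fold change -1.53, SE 0.12; limma, Benjamini-Hochberg adjusted p = 4.2e-05). Col8a2, its partner chain, had 1.20, 1.53 and 1.47 in DMSO and 9.89, 12.8 and 21.6 with SAG, on 26 to 33 and 90 to 168 reads. It rose 10.6-fold (log2 fold change 2.65, SE 0.26; Benjamini-Hochberg adjusted p = 0.000137 in limma), and 8.12-fold without SAG replicate 3. Per kilobase Col8a1 was 395 ± 65.9 times the level of Col8a2 in DMSO and 14.0 ± 4.71 times with SAG, so Col8a1 stayed the more abundant chain (exact two-sided permutation p = 0.1). With Col8a1 below and Col8a2 above DMSO in every SAG library, the groups of this ratio could not overlap, so its p-value adds nothing. Col10a1, a marker of hypertrophic cartilage, had 1.49, 2.82 and 1.86 in DMSO and 0.879, 0.530 and 1.03 with SAG, on 33 to 61 and 5 to 8 reads, and missed the threshold (-0.74, SE 0.25; limma, Benjamini-Hochberg adjusted p = 0.0515); without SAG replicate 3 it passed (-0.83; 0.0175).

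The sequences upstream of Col8a1 and Col8a2 are set side by side because these partners moved apart; capitals mark matches to GGGCGG or its reverse complement. Col8a1 is at chr16:57754738-57754987 on the minus strand and Col8a2 at chr4:126286544-126286792 on the plus strand (GRCm38.p6, RefSeq).
Col8a1: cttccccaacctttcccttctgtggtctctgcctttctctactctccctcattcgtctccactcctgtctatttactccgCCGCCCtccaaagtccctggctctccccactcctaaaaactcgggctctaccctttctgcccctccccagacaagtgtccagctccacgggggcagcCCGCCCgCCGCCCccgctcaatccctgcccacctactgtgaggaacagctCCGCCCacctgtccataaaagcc
Col8a2: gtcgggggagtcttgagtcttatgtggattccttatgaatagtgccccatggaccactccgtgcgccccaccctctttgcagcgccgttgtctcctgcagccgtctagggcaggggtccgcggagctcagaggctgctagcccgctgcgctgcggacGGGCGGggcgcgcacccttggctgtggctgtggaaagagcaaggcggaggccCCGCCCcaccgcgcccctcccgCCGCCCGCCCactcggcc
Each held 4 GC boxes, of which a pair in Col8a2 overlap, and none of the other motifs. RefSeq gave 35 of the 44 genes a promoter window of 300 bases around a start, 38 windows in all. A GC box lay in 60.5% of the 38 and in 35.7% of all 32841 windows, a CCAAT box in 34.2% and 37.4%, and TATAAA in 13.2% and 13.6%. The GLI core lay in 1 of the 38, that of Col23a1, and in 4.61% of all windows. These matches describe letters only and say nothing about binding.

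Of 9 FACIT genes 7 were tested, 2 rose and 2 fell (28.6% each way, beside 12.9% and 16.6% of all tested genes). Col14a1 and Col12a1 encode related collagens on the surface of type I fibrils. Col14a1 had 55.5, 75.3 and 63.7 in DMSO and 126, 132 and 126 with SAG, a 1.98-fold rise without overlap (log2 fold change 0.98, SE 0.12; limma, Benjamini-Hochberg adjusted p = 0.000553). Col12a1 had 983, 1037 and 943 against 719, 744 and 472. It was 1.53-fold lower (-0.64, SE 0.16; 0.0165) and 1.35-fold lower without SAG replicate 3, its lowest library. The call was lost without any 1 of the DMSO libraries and with library-total scaling (limma, Benjamini-Hochberg adjusted p = 0.0537 to 0.0704). Col16a1, a collagen of fibrils and microfibrils, had 324, 329 and 308 in DMSO and 454, 530 and 777 with SAG. It rose 1.83-fold (log2 fold change 0.84, SE 0.17, Benjamini-Hochberg adjusted p = 0.00657 in limma). Without SAG replicate 3, its highest library, the rise was 1.54-fold (log2 fold change 0.61) and was still called. Col19a1, a rare collagen of basement membrane zones, had 2.57, 3.93 and 2.09 against 1.21, 0.848 and 1.28, on 37 to 85 and 8 to 11 reads, and was 2.57-fold lower (log2 fold change -0.85, SE 0.24; limma, Benjamini-Hochberg adjusted p = 0.0276). That call was lost without DMSO replicate 1 or 2, without SAG replicate 2 and with DMSO reads thinned to the SAG depth (limma, Benjamini-Hochberg adjusted p = 0.0714 to 0.132). Col20a1, a little-studied FACIT, had 2.07, 1.62 and 1.92 against 2.42, 3.81 and 3.21. It and the type IX genes Col9a3 and Col9a2 were above DMSO on the means, by 1.68-fold, 1.87-fold and 5.70-fold, and were not called; their groups did not overlap. Col9a2 was highest in SAG replicate 3, at 33 reads where the other SAG libraries had 7 and 14, and without it the ratio of the means was 2.97. Col9a1 had no read in any library, and Col22a1 had at most 25.

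Of the 2 multiplexins, whose ends can be cut off as antiangiogenic fragments, Col15a1 rose 2.03-fold, from 504, 609 and 534 in DMSO to 1170, 1152 and 1017 with SAG (log2 fold change 1.02, SE 0.11; limma, Benjamini-Hochberg adjusted p = 0.000224). All SAG values lay far above DMSO, SAG replicate 3 included. Its relative Col18a1, the source of endostatin, had 49.9 to 51.0 in DMSO against 42.4, 45.9 and 50.6, with overlap (-0.12, 95% interval -0.37 to 0.12). The anchoring fibril gene Col7a1 had 58.3, 61.9 and 57.4 in DMSO and 45.4, 64.8 and 88.2 with SAG. The SAG libraries lay on both sides of DMSO, and its log2 fold change of 0.11 became -0.12 without SAG replicate 3.

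Of 4 transmembrane collagens, which sit in the cell membrane, 2 were tested and both rose, at low levels, where 12.9% of all tested genes rose. Col23a1 had 1.33, 1.25 and 1.18 in DMSO and 2.42, 3.18 and 3.60 with SAG. Col25a1, needed in mice for motor nerves to reach muscle, had 1.99, 1.43 and 1.07 against 3.84, 2.86 and 4.24. Each rose about as much, 2.45-fold and 2.44-fold, on 19 to 48 reads per library (log2 fold changes 0.84, SE 0.21, and 0.90, SE 0.23; limma, Benjamini-Hochberg adjusted p = 0.0155 and 0.0165). The Col23a1 call was lost without any 1 of the DMSO libraries (Benjamini-Hochberg adjusted p in limma 0.0564 to 0.0641) and the Col25a1 call without DMSO replicate 2 or 3 (0.0614 to 0.0768). Col13a1, a collagen of the neuromuscular junction, fell under the filter with 2, 6 and 2 reads in DMSO and 9, 9 and 17 in the shallower SAG libraries. Col17a1, of hemidesmosomes, had 12 to 16 reads in DMSO and 2 to 6 with SAG, and overlapped in signal. Col26a1, a collagen described in mouse testis and ovary, had 2.40, 2.54 and 1.97 in DMSO and 3.95, 9.85 and 8.73 with SAG. It rose 3.26-fold (log2 fold change 1.29, SE 0.29; limma, Benjamini-Hochberg adjusted p = 0.00929). Col28a1 had 11 reads in DMSO replicate 3 and at most 2 in the others.

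Genes that make, process and sense collagen changed in both directions. Of 59 such genes with a row, 52 were tested, and 12 rose and 13 fell (23.1% and 25.0%, where 12.9% and 16.6% of all tested genes did), with a median log2 fold change of -0.04. With library-total scaling 17 rose and 6 fell, beside 19.7% and 10.0% of all genes, and without SAG replicate 3 it was 18 and 18, beside 19.7% and 27.0%. In the folding and hydroxylation list 2 of 17 rose (11.8%, near the share of all genes), P3h3 and Crtap of the prolyl 3-hydroxylase group (1.66-fold and 1.43-fold), and 4 fell, with the lysyl hydroxylase gene Plod3 and the prolyl 4-hydroxylase gene P4ha1 at 1.28-fold and 1.32-fold lower. No gene of that list was called lower when any 1 DMSO library was left out or with library-total scaling, and 6 were without SAG replicate 3; 1 was called higher without DMSO replicate 2 or 3. Of the 5 cross-linking oxidases 4 fell, among them Loxl2 (from 2842 ± 112 to 1567 ± 182) and Loxl4 (from 42.1 ± 1.60 to 16.6 ± 3.30), and none was called higher. Without DMSO replicate 1, 2 of the 5 were lower, with library-total scaling 2 were lower and 1 higher, and without SAG replicate 3 it was 4 and 1. Of 12 tested genes of secretion and end processing 2 rose and 2 fell (16.7% each way, near the shares of all genes). Without SAG replicate 3 it was 4 and 4, with library-total scaling 4 rose, and 1 rose when any 1 DMSO library or SAG replicate 1 was left out. The procollagen C-proteinase gene Tll1 was 4.09-fold lower and the C-proteinase enhancer gene Pcolce2 2.60-fold lower, while Adamts2, which encodes the N-proteinase, rose 1.45-fold. Of 8 tested receptor genes 3 rose and 3 fell. The integrin gene Itga10 was 3.44-fold higher, on only 27 to 53 reads per library, and Adgrg1, a receptor for type III collagen, 1.71-fold lower. Of 10 tested genes of fibril partners 5 rose and none was called lower, and without SAG replicate 3 it was 6 and 1. They included the small proteoglycan genes Dcn, Lum and Fmod, at 4.42-fold, 9.49-fold and 3.08-fold. Lum was low, on 18 to 36 reads in DMSO and 93 to 132 with SAG, and its fitted log2 fold change was 2.56.

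Other marker lists describe the cells in the samples. Of the interstitial progenitor markers 5 of 6 rose, where 12.9% of all tested genes did. Their summed signal was 319 to 335 in DMSO and 833 to 982 with SAG. Lhx9 went the other way and was not called, with 44.8, 36.1 and 40.3 in DMSO against 30.5, 35.6 and 27.0 with SAG. The part of these markers in the collagen changes was not tested. Of 5 tested Sertoli markers and 3 tested endothelial markers none was called. Sertoli markers summed to 269 to 279 in DMSO and 263 to 329 with SAG, mostly from Gata4, at 213 to 279. Endothelial markers summed to 31.3 to 38.1 in DMSO and 35.2 to 50.1 with SAG, mostly from Cdh5. Amh of the Sertoli list and Pecam1, Tek and Tie1 of the endothelial list were below a mean of 1. Macrophage, germ, erythroid and surface epithelial markers summed to at most 6.75 in any library. Fetal Leydig markers summed to 32.3 to 33.3 in DMSO and 19.0 to 116 with SAG, the top value in replicate 3; Insl3 and Cyp17a1 were below a mean of 1.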

How the data were processed

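RNA-seq was done on 6 libraries, 3 with SAG and 3 with DMSO. Tools named in the submitters' processing notes were featureCounts 2.0.0, STAR, Trim Galore 0.6.4 and an edgeR given as version 2.2.1, with the build GRCm38 (mm10). Not given in the sources used here are the annotation, strand setting and filters. The only table of signal by gene symbol, called CPM in its name, was deposited by the authors. All of its values (100%, tolerance 0.01) were whole multiples of 1 step per column, which gave back the reads. The 92 spike-in rows name no gene and were left out; they held no reads in DMSO and 111, 54 and 1205 reads in SAG replicates 1, 2 and 3. The 95% intervals are those of the limma fit and rest on the spread between libraries.

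Log2(signal + 1) was tested with limma 3.58.1 (R 4.3.3, eBayes with trend, no covariate) where a gene's mean over the 6 libraries reached 1, and p-values were adjusted over these 12550 genes by Benjamini-Hochberg. A fold without a log is one group's mean signal over the other's. The limma step was tested on simulated data. Alternatives were other pseudocounts, filters and scalings, limma without trend or robust, a replicate block, edgeR 4.0.16 (1877 genes higher, 1881 lower) and DESeq2 1.42.0 on recovered reads, DMSO reads thinned to 8338764, and each library left out. Coordinates and lengths come from GENCODE M21, which all 44 symbols matched. Levels per kilobase used the transcript with the longest coding sequence; merged exons had been used first and were replaced after the values were seen. Values in every library were to be given for called members and the highest uncalled member of each class, the others by range and counts; Col1a2, Col5a1, Col5a2 and Col4a2 were added after their values were seen. At most 4 genes per other list were named, by smallest p. Members, classes and lists were chosen with earlier results of these data known.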

Additional observations from a re-analysis of the deposited data

How the results depend on the processing

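In the 18 alternatives the collagen genes gave 638 further values, of which 588 kept direction and call, 26 lost the call, 22 gained it and 2 changed sign without being called. The last were Col18a1 (0.02 with library-total scaling) and Col7a1 (-0.12 without SAG replicate 3, up to 0.35 without SAG replicate 1). Of the 16 higher genes 11 were tested and called in all 18 alternatives, and of the 7 lower genes 3: Col8a1, Col11a1 and Col4a6. With each library left out in turn, 13 to 18 collagen genes were higher and 3 to 9 lower, and over all genes 901 to 2463 were higher and 1086 to 3373 lower. Among the other genes of collagen making and sensing 8 to 18 were higher and 6 to 18 lower. Library-total scaling gave 2477 higher and 1259 lower over all genes, and 6 lower among those other genes; the cause was not tested. The same-numbered libraries did not deviate together (correlations of -0.0231, 0.0332 and -0.000173); with the replicate block 17 collagen genes were higher and 6 lower, 1549 and 1976 genes in all, and 11 and 13 of the other collagen genes. With edgeR on the recovered reads 17 collagen genes were higher and 8 lower, where 15.0% of all genes were called in each direction. With DESeq2 18 collagen genes were higher and 8 lower, beside 2138 and 1965 of all 12550 genes. The length used for levels per kilobase was changed after values had been seen; a ratio moves by 1 fixed factor in every library, so its group difference keeps its size, while the order of genes does not. Depth limited the genes with few reads, since 1 read in a SAG library is a signal of at least 0.106.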
